A study of Mus musculus with 18 samples.

Results

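The miR-130 and miR-301 family was followed in mouse kidney small RNA through its 3 listed members, mmu-miR-130a-3p, mmu-miR-130b-3p and mmu-miR-301a-3p (mmu marks mouse and is left out where no confusion arises), each of which stood on 1 of the 1534 entries of the deposited table. They were chosen by name. The family was put forward with earlier results of these libraries known, so the members' levels and differences are given as a description and support nothing. The study had 3 groups of 6 kidney libraries. Controls were C57BL/6J animals that received 0.9% saline. Animals with diabetic nephropathy (DN) were of strain C57BL/KsJ and received the same vehicle, and the treated animals, also C57BL/KsJ, received germacrone, a sesquiterpene of plants, at 10 mg/kg per day. Because controls were of another strain, the effects of strain and of disease cannot be told apart. The labels do not tie libraries to separate mice, so the p-values describe the spread among these libraries, which may be technical.

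A miRNA guides the silencing complex to messenger RNAs that pair with its seed, the bases near its 5′ end. Members of this family share a seed and are known to repress Pparg, a nuclear receptor of fat and metabolic genes, and they have been linked to stiffening of vessel walls and remodelling of extracellular matrix. miR-130a is also known for promoting blood vessel growth from endothelial cells. Each hairpin gives a 3p arm, which is the family member, and a 5p arm cut from the other side of the same precursor.

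The mature sequences, from RefSeq on GRCm38.p6, are shown because the seed is what makes these miRNAs a family and because the rest of the sequence sets how well reads can be told apart. All 3 members and their 3 other arms were found there. Capitals mark the seed, bases 2 to 8.
miR-130a-3p: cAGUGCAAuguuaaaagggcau
miR-130b-3p: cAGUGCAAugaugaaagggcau
miR-301a-3p: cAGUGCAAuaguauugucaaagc
miR-130a-5p: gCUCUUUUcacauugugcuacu
miR-130b-5p: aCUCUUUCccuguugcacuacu
miR-301a-5p: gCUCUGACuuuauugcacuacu

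The 3 members had the same seed, whereas the 5p arms had 3 different ones. Counting from 1 at the 5′ end, miR-130a-3p and miR-130b-3p differed at 2 of 22 bases, U11A and A13G, and were identical over the first 10. miR-301a-3p differed from miR-130a-3p at 10 of the 22 bases compared, all after the first 9. In library 2 of the DN group (DN 2), the deposited counts of mmu-miR-130a-3p and mmu-miR-130b-3p were 11213.5 and 612.5. The sources used here do not say how reads were divided between entries, so the split between these 2 near-identical miRNAs is uncertain. Among 1679 mature mouse miRNAs of the RefSeq table, 7 had this seed, and the 3 members were the ones among these 7 named in the deposited table. The others were miR-130c, miR-721, miR-6341 and miR-6389. miR-301b-3p, also counted with this family, had no RefSeq mature entry here and is described from its counts.

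The hairpins lie apart in the genome (GRCm38, GENCODE M21). Mir130a is on chromosome 2 from 84741115 to 84741178, minus strand, between genes. Mir301, which gives miR-301a, is on chromosome 11 from 87113004 to 87113089, plus strand, in an intron of Ska2, a gene of the spindle and kinetochore. Mir130b, on chromosome 16 from 17124061 to 17124142, and Mir301b, from 17124400 to 17124496, are both on the minus strand in an intron of 2610318N02Rik, with 257 bases between them.

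Library totals were 3645173 to 7239343 counts. Kidney epithelial marker miRNAs stood as 7 names on 8 entries, with miR-194-5p on 2 entries of the same levels. They summed to 42340 CPM (counts scaled to a common library size) in DN 2, the lowest, and to 97960 to 187300 CPM in the other libraries. Not every marker was low in DN 2. miR-192-5p was at its lowest there, at 3879 CPM, whereas miR-204-5p, at 513 CPM, lay within the control range of 305 to 575 CPM. DN 2 correlated least with its own group (median r 0.896), followed by DN 3 (0.926) and control 2 (0.946), against 0.958 to 0.973 for the others. Values are therefore given with and without DN 2. By the edgeR quasi-likelihood test over 619 tested entries, 0 passed an adjusted p under 0.05 in any of the 3 comparisons. At an unadjusted p under 0.05 there were 47 in DN against control, 23 in treated against DN and 121 in treated against control. DESeq2 called 4, 0 and 24, and limma-voom with sample weights 91, 0 and 106.

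mmu-miR-130a-3p was by far the most read member. Its counts ran from 2275 to 11214 per library, and its mean of 1018 CPM ranked 90th of the 1184 named entries. In control kidneys its level was 903, 998, 1409, 966, 1488 and 1217 CPM in libraries 1 to 6. In DN kidneys it was 1198, 1631, 1089, 645, 938 and 899 CPM, and in treated kidneys 860, 1046, 714, 961, 729 and 626 CPM. DN 2 was the highest of all 18 libraries and treated 6 the lowest, and the 3 groups overlapped. The mean level fell in the order control (1163 ± 246 CPM, SD, n = 6), DN (1067 ± 334) and treated (823 ± 161), with neighbours in that order closer than the larger of their SDs. The control and treated means, at the ends of that order, lay further apart than either SD. Without DN 2, the DN mean was 954 ± 210 CPM (n = 5).

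mmu-miR-301a-3p was read at 64 to 473 counts per library, with a mean of 63.5 CPM over all libraries. In control kidneys its level was 41.5, 12.3, 30.4, 53.9, 39.5 and 71.8 CPM in libraries 1 to 6. In DN kidneys it was 104.8, 68.8, 14.0, 47.7, 80.1 and 89.3 CPM, and in treated kidneys 79.6, 100.6, 99.8, 100.9, 38.6 and 68.7 CPM. Control 2 and DN 3, which also correlated poorly with their own groups, were the lowest, and treated 2, 3 and 4 lay close together near the top. The mean level was 41.6 ± 20.2 CPM in control, 67.5 ± 32.5 in DN and 81.4 ± 24.8 in treated libraries (SD, n = 6 each), again with neighbours closer than the larger of their SDs. Here too the control and treated means lay further apart than either SD. The DN mean was 67.2 ± 36.3 CPM without DN 2 (n = 5). The order of the group means was thus the reverse of that of miR-130a-3p.

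mmu-miR-130b-3p was near the lower end of what these libraries resolve, at 11 to 73 counts in every library except DN 2, which had 612. In control kidneys its level was 5.78, 6.78, 7.56, 4.90, 5.61 and 7.56 CPM in libraries 1 to 6. In DN kidneys it was 5.64, 89.0, 7.65, 4.57, 5.13 and 3.88 CPM, and in treated kidneys 6.46, 3.02, 5.02, 4.06, 7.69 and 15.05 CPM. DN 2 stood far above all other libraries, with treated 6 next. The DN mean of 19.3 ± 34.2 CPM (SD, n = 6) became 5.37 ± 1.43 (n = 5) without DN 2, beside 6.36 ± 1.10 in control and 6.88 ± 4.33 in treated libraries (n = 6 each). Without DN 2, no 2 group means lay further apart than the larger of their SDs.

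**Figure D1:**
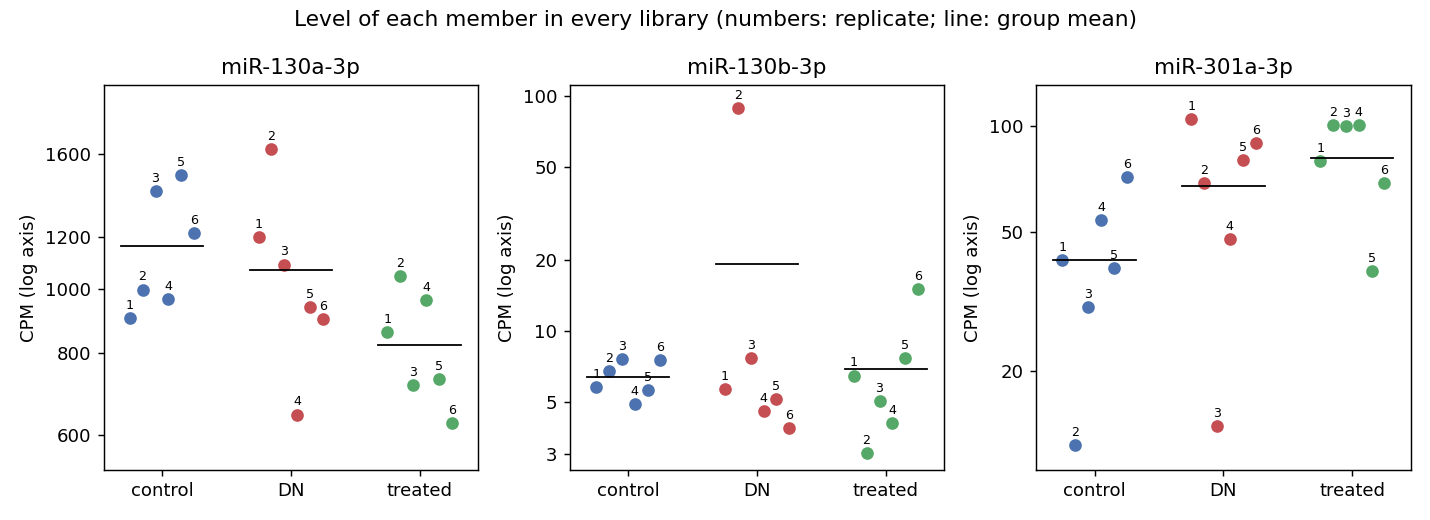
Level of miR-130a-3p, miR-130b-3p and miR-301a-3p in CPM on log axes, 1 panel per member, with 1 point per library (number: replicate) and a line at the group mean. miR-130a-3p means go down from 1163 to 823 CPM and miR-301a-3p means go up from 41.6 to 81.4 CPM between control and treated libraries, and DN 2 is the one library with miR-130b-3p at 89.0 CPM.

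The balance within the family needs no scaling between libraries. miR-130a-3p made up 96.0 ± 1.79% of the 3 members' counts in control, 92.6 ± 2.74% in DN and 90.3 ± 2.40% in treated libraries (SD, n = 6 each). The share of miR-301a-3p was 3.51 ± 1.79% in control, with a range of 1.21 to 5.54%, and 6.13 ± 2.97% in DN, with a range of 1.26 to 9.003%. In treated libraries it was 8.91 ± 2.34%, from 4.98 to 12.2%. Treated 5 lay below control 4 (5.26%) and control 6, and the other 5 treated libraries lay above every control library. The treated and control means were further apart than either SD, and no test was run, since the members were chosen with their results known. In DN 3 the share was 1.26% (exact 95% interval 0.971 to 1.60%), and in the other DN libraries 3.85 to 9.003%. Control 2 (1.21%) and DN 3, which correlated poorly with their own groups, had the lowest shares of all libraries. No mean share was computed without them. Intervals cover counting error only.

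The share of miR-130b-3p was 0.366 to 0.667% in control libraries and 0.391 to 0.689% in DN libraries other than DN 2. In DN 2 it reached 4.98% (exact 95% interval 4.598 to 5.38%), above the 3.85% of miR-301a-3p in the same library. In treated 6 it was 2.12% (1.67 to 2.66%). DN 2 was the one library in which miR-130b-3p outnumbered miR-301a-3p. The mean share in DN was 1.27% with DN 2 and 0.533% without it. As a whole, the members took 0.0926 to 0.170% of all counts in control libraries. The range was 0.0632 to 0.214% in DN libraries, with DN 2 at the top, and 0.0679 to 0.114% in treated ones.

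**Figure D2:**
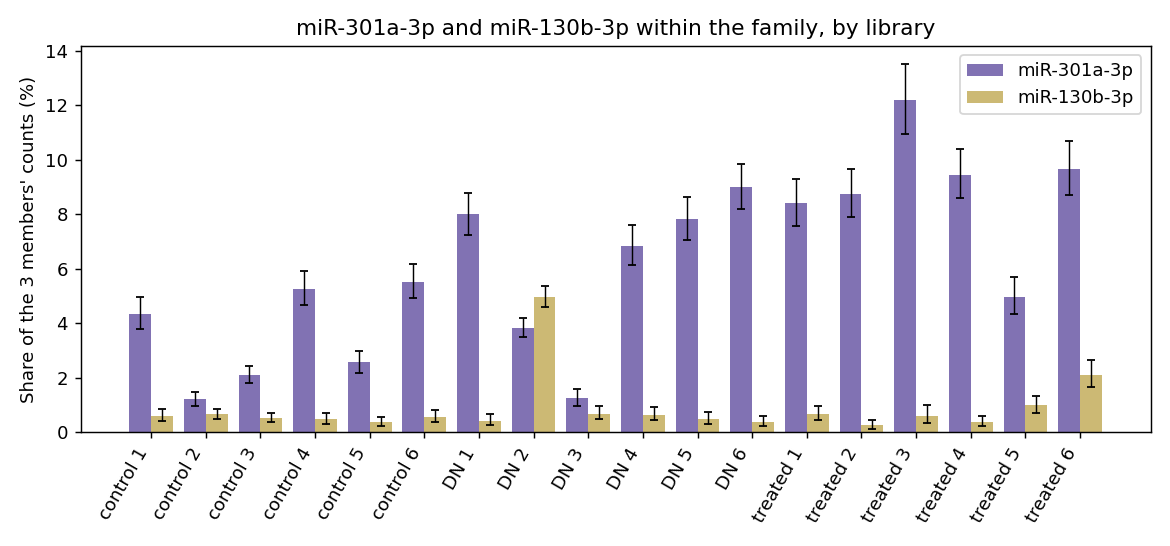
Share of miR-301a-3p and miR-130b-3p in the summed counts of the 3 members (percent, axis from 0) in each of the 18 libraries, with exact 95% intervals as bars; miR-130a-3p makes up the rest. miR-301a-3p runs from 1.21 to 5.54% in control and from 4.98 to 12.2% in treated libraries, and miR-130b-3p exceeds it in DN 2 alone.

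The other arms were not among the listed members. They were far scarcer than the 3p arm for miR-130a and miR-301a, and less so for miR-130b. Summed over all libraries, there were 319 reads of miR-130a-3p for each read of miR-130a-5p, 12.8 of miR-301a-3p for each of miR-301a-5p and 3.01 of miR-130b-3p for each of miR-130b-5p. The mean log2 ratio of 3p to 5p reads of miR-130b was 1.71 ± 0.380 in control (SD, n = 6), 1.69 ± 0.354 in DN (n = 6) and 1.27 ± 0.219 in the 5 treated libraries with any 5p read. It was 1.70 in DN without DN 2, so the balance of the 2 arms in DN differed little with that library. For miR-301a the mean log2 ratio was 3.41 ± 0.711, 3.67 ± 0.513 and 3.87 ± 0.555 in control, DN and treated libraries, closer together than the SDs.

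miR-130b-5p, at 195 counts in DN 2 and 0 to 31 elsewhere, followed its 3p arm. Its level was 28.4 CPM in DN 2, 6.39 in treated 6 and 0 to 3.94 in the other libraries. miR-301b-3p, whose hairpin neighbours that of miR-130b in the same intron, had 27 counts in DN 2, 5 in DN 4 and 0 in the other 16 libraries. It did not pass the filter on low counts. An entry named for the pig miRNA ssc-miR-130b-3p held 11 counts in DN 2, 5 in treated 6 and 0 elsewhere. Each of the entries bearing the names miR-130b or miR-301b thus had its highest count in DN 2. That was not particular to them. Among other entries, miR-130a-3p, miR-148a-3p and miR-21a-5p also had their highest count there, whereas miR-192-5p had its lowest. The share of all entries highest in DN 2 was not worked out.

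The summed level of leukocyte marker miRNAs was highest in DN 2 and next in treated 6, though the markers behind it differed. The 8 listed markers, among them the myeloid miR-223-3p and the blood cell miR-142a-3p, summed to 28030 CPM in DN 2 and to 1765 to 2566 in the other DN libraries. The sum was 3307 to 4427 CPM across control and ran from 2017 to 9424 across treated libraries, with treated 6 the highest. miR-146a-5p, an NF-kB-induced miRNA, contributed 7611 CPM in treated 6 and 11550 in DN 2, while miR-223-3p was at 197 CPM in treated 6 and 5097 in DN 2. In DN 2, 8 of 8 markers were at their highest of the 18 libraries. In treated 6, 4 of 8 (miR-223-3p, miR-146a-5p, miR-146b-5p and miR-342-3p) lay above every control library, 2 (both arms of miR-142a) lay within the control range, and 2 lay below it, with miR-150-5p at 71.1 CPM and miR-155-5p at 99.4. Without miR-146a-5p the sum in treated 6 was 1813 CPM, within the control range of 1263 to 2000, against 16480 in DN 2. None of the 8 markers was at 0 in any library. DN 2 and treated 6 ranked first and second for both the leukocyte sum and miR-130b-3p. Across libraries, Pearson's r between log2 miR-130b-3p and the log2 leukocyte sum was 0.90 (n = 18), and 0.72 without DN 2 (n = 17), values that share each library's depth and scaling. Spearman's rho was 0.63 and 0.56. Once DN 2 was left out, treated 6 stood apart in both values, at 9424 and 15.05 CPM. No r was computed without both libraries, nor with the sum without miR-146a-5p. For miR-301a-3p, r was −0.12 and −0.30 and rho −0.54 and −0.59, so its ranks ran against those of the leukocyte sum about as far as those of miR-130b-3p ran with them. For miR-130a-3p, r was 0.31 and −0.10 and rho 0.20 and 0.054. With the total count of the library, rho was −0.53 and −0.54 for miR-301a-3p, about as far from 0 as with the leukocyte sum. It was −0.37 and −0.53 for miR-130a-3p and 0.29 and 0.21 for miR-130b-3p. The part of depth in these correlations was not tested. In bulk tissue, fewer cells of a type and less RNA per cell cannot be told apart, and the part of leukocytes in the miR-130b level was not tested.

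**Figure D3:**
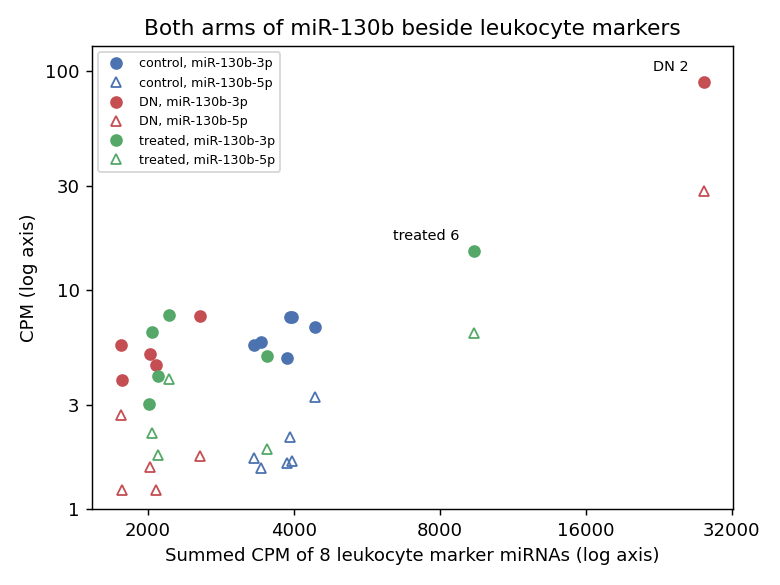
CPM of miR-130b-3p (filled circles) and miR-130b-5p (open triangles, libraries above 0) against the summed CPM of 8 leukocyte marker miRNAs in each library, both axes log, coloured by group. DN 2 lies at 28030 CPM of markers and 89.0 CPM of miR-130b-3p, treated 6 at 9424 and 15.05, and the other libraries at 1765 to 4427 and 3.02 to 7.69.

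The comparison of DN with control kidneys addresses the miRNA profile of the disease model. Of the 3 members, 0 were called, as were 0 of 619 entries (0%), and the groups overlapped for all 3, as for all entries tested (0% did not overlap). The log2 fold change (log2FC, DN minus control on the log2 scale) of miR-301a-3p was 0.70 (SE 0.409, 95% interval −0.16 to 1.55, edgeR adjusted p = 0.688), with 5 of 6 DN libraries above the control median. It was 0.69 without DN 2. The log2FC of miR-130a-3p was −0.13 (SE 0.210, interval −0.56 to 0.31, adjusted p = 0.908), with 4 of 6 DN libraries below the control median. It was −0.26 without DN 2, and its sign turned without control 3 (0.0054), control 5 (0.029) or DN 4 (0.024). For miR-130b-3p the log2FC of 1.61 (SE 0.683, interval 0.18 to 3.03, adjusted p = 0.544) rested on DN 2: 2 of 6 DN libraries lay above the control median, and the log2FC was −0.21 without DN 2. At an unadjusted p under 0.05 this was 1 of the 3 members, against 7.59% of all entries, and without DN 2 it was 0 against 12.1%. Of the arms the rule did not list, miR-301a-5p had a log2FC of 0.57 (SE 0.387, adjusted p = 0.706), above the control median in 5 of 6 DN libraries. miR-130b-5p had 1.62 (adjusted p = 0.618), which was −0.22 without DN 2, and miR-130a-5p 0.15 (adjusted p = 0.968).

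Setting treated beside DN kidneys addresses the response to germacrone. Here too 0 of the 3 members were called, with 0% of all entries, and groups overlapped for all entries. miR-130a-3p had a log2FC of −0.37 (SE 0.210, interval −0.81 to 0.064, edgeR adjusted p = 0.800), below the DN median in 5 of 6 treated libraries, and −0.25 without DN 2. miR-301a-3p had a log2FC of 0.27 (SE 0.408, interval −0.58 to 1.12, adjusted p = 0.895), above the DN median in 4 of 6. Without control 2, DN 2 and DN 3 it was 0.0034, at 81.4 CPM in treated and 80.5 in DN libraries. miR-130b-3p had a log2FC of −1.49 (SE 0.685, interval −2.92 to −0.053, adjusted p = 0.800), and 0.32 without DN 2, where 3 of 6 treated libraries lay above the DN median. It was the 1 member of 3 at an unadjusted p under 0.05, against 3.72% of all entries. Without DN 2 this was 0, against 2.86%. Of the arms, miR-130b-5p had −1.17 (adjusted p = 0.800, and a log2FC of 0.66 without DN 2), miR-301a-5p 0.12 (0.977) and miR-130a-5p 0.16 (0.986).

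Treated kidneys were also set beside control kidneys. This comparison shares its treated libraries with the one above and its control libraries with the first, so the 3 sets of values are not independent. Again 0 of 3 members and 0% of entries were called. miR-130a-3p had a log2FC of −0.50 (SE 0.210, interval −0.94 to −0.061, 0.707-fold, edgeR adjusted p = 0.202), with 6 of 6 treated libraries below the control median, and −0.51 without DN 2. miR-301a-3p had a log2FC of 0.97 (SE 0.409, interval 0.11 to 1.82, 1.96-fold, adjusted p = 0.202), with 5 of 6 treated libraries above the control median, and 0.97 without DN 2. The groups overlapped for both, and did not overlap for 5.17% of all entries. These were 2 of 3 members at an unadjusted p under 0.05, against 19.5% of all entries, and the same number without DN 2, against 25.9%. Both passed the threshold with limma-voom and sample weights, at adjusted p = 0.0349 for miR-130a-3p and 0.0322 for miR-301a-3p, a method that called 17.1% of all entries in this comparison. Over all alternatives the adjusted p ran from 0.0349 to 0.412 and from 0.0322 to 0.333. miR-130b-3p had a log2FC of 0.12 (SE 0.695, interval −1.33 to 1.57, adjusted p = 0.931), which was −0.24 without treated 6 and −0.086 with library size as the only scaling. Of the arms, miR-301a-5p had 0.69 (SE 0.388, adjusted p = 0.336), above the control median in 5 of 6 treated libraries. miR-130b-5p had 0.45 (0.771) and miR-130a-5p 0.31 (0.777), the latter at 0 to 28 counts per library in these 2 groups.

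**Figure D4:**
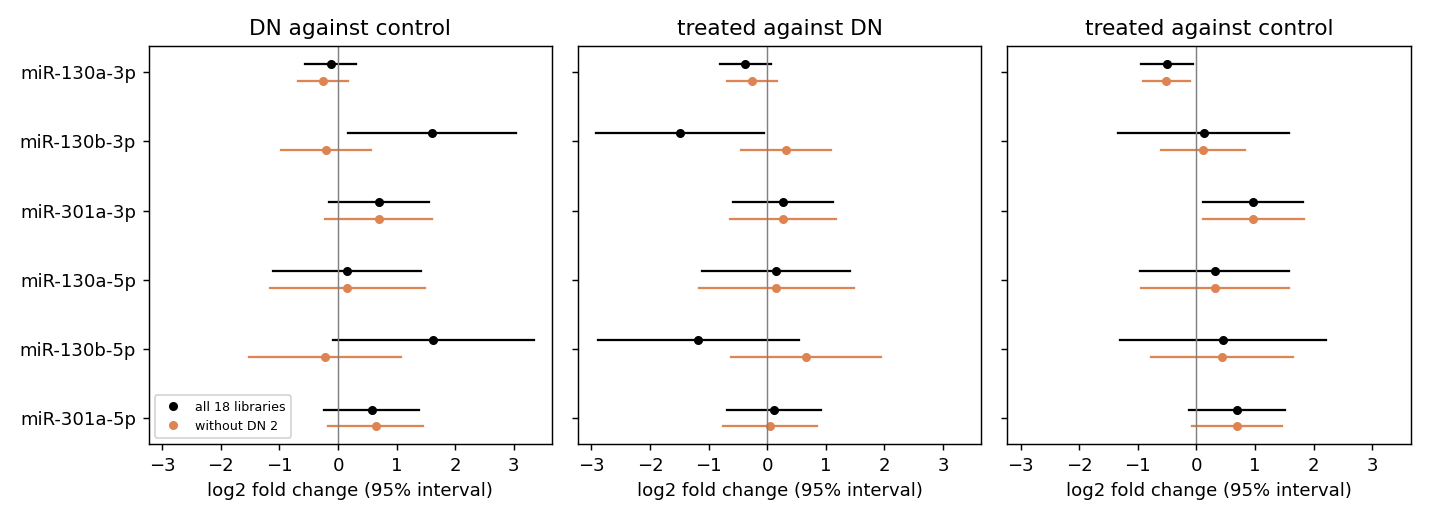
Log2 fold change with 95% interval of the 3 members and their other arms in the 3 comparisons, from the fit over all 18 libraries (black) and without DN 2 (orange). The values of miR-130b-3p and miR-130b-5p in DN against control and in treated against DN change sign without DN 2, whereas miR-130a-3p and miR-301a-3p keep theirs.

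Related seeds are shown for comparison, with capitals on the longest run that each shares with the first 9 bases of miR-130a-3p.
miR-148a-3p: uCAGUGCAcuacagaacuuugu
miR-152-3p: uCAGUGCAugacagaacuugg
miR-19b-3p: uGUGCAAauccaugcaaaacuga

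The miR-148 and miR-152 family shared 7 bases and the miR-19 family, of the growth-linked miR-17-92 cluster, shared 6. In each comparison 0 of the 3 tested entries of either group were called (miR-19b-3p stands on 2 entries with the same counts). In treated against control kidneys, log2FC ran from −0.45 (miR-148a-3p, edgeR adjusted p = 0.740) to 0.75 (miR-152-3p, 0.173) in the first group, and from 0.29 (miR-19a-3p) to 0.40 (miR-19b-3p) in the second.

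Fibrosis-associated miRNAs, a list of 15 names on 19 tested entries, some of them repeats, that holds miR-21a-5p, miR-132-3p, miR-212-3p and the miR-29 family, also had 0 entries called in each comparison. The 2 entries of miR-199a-5p and the 1 of miR-199b-5p had the same levels in every group. So had the 3 entries of miR-199a-3p, and the 2 of miR-29b-3p. The counts and medians below weigh such repeats as separate entries. In treated against control, 15 of 19 were higher, against 308 of 619 over all entries. The median log2FC was 0.26, against −0.0035 over all entries. Values ran from −0.48 (miR-214-3p) to 1.19 (miR-21a-5p, edgeR adjusted p = 0.173). In DN against control, 16 of 19 were higher with a median log2FC of 0.38, against 350 of 619 and 0.075 over all entries. Without DN 2 this was 14 of 19 and 0.079, against 331 of 630 and 0.023. In treated against DN, 6 of 19 were higher with a median of −0.030, against 261 of 619 and −0.054 over all entries. Without DN 2 it was 15 of 19 with a median of 0.21, against 287 of 630 and −0.035.

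The miRNAs whose log2 CPM most resembled that of each member were taken among 362 mouse-named entries with a mean of at least 10 CPM. All correlations share depth and scaling and are descriptions. For miR-301a-3p over 18 libraries they were miR-322-5p (Pearson's r 0.907), miR-106b-5p (0.902), miR-335-5p (0.899), miR-542-3p (0.879) and miR-362-3p (0.875). Without DN 2 these lay at 0.876 to 0.949 (n = 17), and miR-335-5p was the 1 of them still among the first 5. The lowest of them, miR-362-3p at 0.876, ranked 30th of 362 there, so an r this high was not particular to the entries named. Control 2 and DN 3, the lowest libraries for miR-301a-3p, were kept in these correlations. For miR-130b-3p they were the leukocyte marker miR-342-3p (0.929), miR-132-3p (0.908), miR-223-3p (0.896), miR-338-5p (0.867) and miR-212-3p (0.860). Without DN 2 miR-212-3p (0.813), miR-132-3p (0.755) and miR-342-3p (0.677) were still among the first 5, whereas miR-223-3p fell to 0.455.

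For miR-130a-3p the nearest were miR-139-5p (0.743), miR-150-5p (0.731), miR-425-5p (0.729), miR-674-5p (0.679) and miR-500-3p (0.657), and 0 of these 5 were among the first 5 without DN 2, at r of 0.598 to 0.665. No pair of members had a positive Pearson correlation without DN 2. It was −0.15 between miR-130a-3p and miR-130b-3p, −0.20 between miR-130a-3p and miR-301a-3p and −0.38 between miR-130b-3p and miR-301a-3p (n = 17). With all 18 libraries these were 0.35, −0.14 and −0.093. Spearman's rho for the same pairs was 0.049, −0.15 and −0.61 without DN 2 and 0.20, −0.12 and −0.54 with it. By rank, miR-130b-3p was thus lower in libraries where miR-301a-3p was higher.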

How the data were processed

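Raw values deposited by the authors were estimated counts per miRNA entry (76.9% of values above 0 were whole), and the deposited normalized columns were a signal, each library's raw values multiplied by a constant (0.6644 to 1.427) of unstated origin. Per the labels' protocols, kidney RNA was extracted with Trizol, libraries were made with a TruSeq Small RNA kit, sequenced on an Illumina HiSeq, and cleaned with ACGT101-miR. Trimmomatic 0.32, BWA, SAMtools and edgeR appear in the submitters' processing notes. The sources used here do not give the build, the miRBase release or the assignment of reads.

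The 350 unnamed entries (0.0136 to 0.148% of a library) were left out, and counts of the 1184 named entries were rounded to whole numbers. edgeR 4.0.16 in R 4.3.3 fitted all 18 libraries with group as the only factor, after filterByExpr (minimum count 10, minimum total 15, 619 entries kept), with TMM factors and the legacy quasi-likelihood test, 2-sided, Benjamini-Hochberg adjusted over the 619 entries. The procedure was checked on simulated data for DN against control. The simulated spread between libraries (BCV, biological coefficient of variation) was 0.5, the common value estimated in these data. Of entries changed 2-fold, 36% were called, and of those changed 4-fold, 96%, with false calls at 4.35%. At a BCV of 0.2 these were 95%, 98% and 1.03%. In the real libraries the highest log2FC in DN against control, 4.79 for miR-147-3p, was not called (edgeR adjusted p = 0.277). The 96% therefore need not hold for them. Most 2-fold changes were missed at a BCV of 0.5, and an entry not called here may still differ. CPM used the TMM factors, and log2 CPM a prior count of 2. SEs come from the working weights and posterior quasi-dispersion. Alternatives used DESeq2 1.42.0, limma 3.58.1 (voom), other scalings, filters and designs, and left out libraries. None of the 45 pairs within a group agreed within counting noise (smallest chi-square per degree of freedom 60.4). The members and lists were chosen with earlier results of these data known. The text names the 3 members, their relatives and other arms, the 5 most correlated entries of each member, and the highest and lowest entry of a list; other examples were picked after their values were seen.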

Additional observations from a re-analysis of the deposited data

Results flagged for a closer look

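In 18 groups of 6 libraries (3 members and 3 other arms in 3 groups), 5 had a highest library far from the nearest other one. The rule was set to flag about 1 in 20 groups by chance, but the 5 cannot be set against that rate. The members were chosen with earlier results known, and both arms of miR-130b in DN 2 come from the same hairpin and library. Other flags rest on 24 to 30 counts. The flags are therefore given as a description. miR-130b-3p was at 89.03 CPM in DN 2, with a gap to the next DN library of 0.956 of the whole range, and miR-130b-5p at 28.37 CPM in DN 2 (0.946). miR-130b-5p was also apart in control 2, at 3.254 CPM (0.660) from 24 counts. miR-130a-5p was apart in DN 5, at 6.693 CPM (0.648) from 30 counts, and in treated 2, at 7.698 CPM (0.808) from 28 counts.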

How the results depend on the processing

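Over the alternatives, entries called in DN against control numbered 2 with a filter of 10 CPM in 6 libraries, 4 with DESeq2, 91 with limma-voom, 6 with the edgeR 4 method, 51 without control 2, DN 2 and DN 3, and 0 to 6 with 1 library left out (6 without DN 2, 6 without DN 3 and 1 without control 2). In treated against control they numbered 24 with DESeq2, 106 with limma-voom, 3 with the edgeR 4 method, 50 without the 3 libraries, 56 with only the 2 groups compared and 0 to 7 with 1 left out (7 without DN 2 and 3 without DN 3). In treated against DN every alternative run gave 0. The cause was not tested. The 10 CPM filter removed miR-130b-3p and the 5p arms, and fits of only 2 groups dropped miR-130b-5p, so these have no value there.

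miR-301a-3p kept its sign in all alternatives, at log2FC 0.59 to 0.93, 0.0034 to 0.39 and 0.75 to 1.2 in the 3 comparisons, and miR-130a-3p kept it in both comparisons of treated libraries (−0.54 to −0.082 and −0.71 to −0.38). With limma-voom both passed in treated against control (−0.55 and 1.01), as did 17.1% of all entries. With 1 library left out, miR-130a-3p ranged from −0.26 to 0.029 in DN against control. miR-130b-3p then ranged from −0.21 to 1.87, from −1.91 to 0.32 and from −0.24 to 0.32 in the 3 comparisons. Its reversed values were −0.35, 0.32 and −0.032 with limma-voom, −0.41 and 0.53 in the first 2 comparisons without the 3 libraries, and −0.086 in the third with library size only. For the other arms in DN against control, the range with 1 library left out was −0.094 to 0.43 for miR-130a-5p and −0.22 to 1.90 for miR-130b-5p. In treated against DN it was −0.22 to 0.45, −1.65 to 0.66 and, for miR-301a-5p, −0.12 to 0.32. limma-voom gave −0.24 for miR-130b-5p in DN against control, and −0.15, 0.38 and −0.12 for miR-130a-5p, miR-130b-5p and miR-301a-5p in treated against DN. Without the 3 libraries these 4 were −0.085, −0.026, 0.73 and −0.20.

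Library size only moved the median log2FC of all entries by −0.14 in treated against DN and by −0.20 in treated against control. The authors' scaling factors, added after seeing the data, reversed no member. Same-numbered libraries of different groups had deviations correlated at −0.329 to 0.262, over 0.1 in 3 of 18 pairs. No pairing by number was seen, though low correlations cannot exclude one. With the replicate number as a block, 0 entries were called in each comparison, and the log2FC in the 3 comparisons was −0.17, −0.34 and −0.51 for miR-130a-3p, 0.61, −0.45 and 0.16 for miR-130b-3p and 0.70, 0.39 and 1.09 for miR-301a-3p. Depth limits miR-130b-3p outside DN 2 and the 5p arms, at 0 to 73 counts.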
